A study of Mus musculus with 6 samples.

Results

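Lipocalin genes Lcn2, Lcn5, Lcn6, Lcn8, Lcn9, Lcn10 and Lcn12 were examined in white fat of mice fed a high-fat diet (HFD). These 7 genes of 32759 in the table were taken by symbol, and they were chosen by their counts in these same libraries, so their levels are given as a description without a test. RNA was sequenced from 3 samples of mice on the diet alone (HFD 1 to 3) and 3 samples of mice on the same diet treated with the small molecule tetrahydroberberrubine (THBru), 50 mg/kg each day (THBru 1 to 3). The study asked which processes THBru changes in white fat of obese mice. All 6 samples carry the diet, and the labels give neither strain, sex, age nor fat depot. The labels do not say whether the 3 samples of a group came from separate animals, so the p-values measure only the spread between these samples.

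Lipocalins are small, mostly secreted proteins that fold into a barrel around a hydrophobic ligand. Several of them are made by the epithelium of the epididymis, the duct in which sperm mature, where their expression depends on androgen and differs between segments of the duct. Lcn5 encodes a retinoic acid binding protein of epididymal fluid, and Lcn6, Lcn8, Lcn9, Lcn10 and Lcn12 encode relatives found in the same duct. Lcn2, known as neutrophil gelatinase-associated lipocalin, sequesters iron-carrying siderophores and is made by adipocytes, neutrophils and many epithelia under inflammatory stimulation.

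Total counts ranged from 67195085 to 76995679 per library. Libraries stood apart in what tissue their transcripts marked. The summed level of 22 mature adipocyte genes was 40451 to 60307 counts per 1000000 counts (CPM) in the HFD libraries and 45485 in THBru 2, but 8579 in THBru 1 and 5277 in THBru 3. The 24 epididymal epithelium genes other than lipocalins summed to 294 to 335 CPM in the HFD libraries, 15490 in THBru 1, mostly Pate4, 353 in THBru 2 and 68479 in THBru 3. Seminal vesicle genes took 43.0% of counts in THBru 1, and kidney tubule genes were highest in THBru 2, at 1232 CPM. In these bulk samples, fewer cells of a type and less RNA per cell cannot be told apart.

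Nearly all counts of the 6 lipocalins other than Lcn2 came from THBru 3. Together they gave 548297 counts in THBru 3, which was 0.816% of that library (95% Wilson interval 0.814 to 0.818), against 678, 640 and 784 counts in the 3 HFD libraries. THBru 1 and THBru 2 gave 760 and 995 counts. Lcn2 differed from them in being well expressed in every library, yet it too was highest in THBru 3. The rule took the genes from this contrast, so nothing is read from the share of members past a threshold: 0 of 7 were called by edgeR at an adjusted p of 0.05, where 0.118% of the 16140 genes tested were called, all higher in THBru. With the summed adipocyte list as library size, 5 of 7 were called, all but Lcn6 and Lcn12, where 7397 genes were called. At an unadjusted p under 0.05, 13.9% of genes were higher and 8.93% lower. All 7 passed the filter on low values, a mean level of 0.5 or more fragments per kilobase per 1000000 fragments (FPKM), and 5 would have done so without THBru 3.

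**Figure D1:**
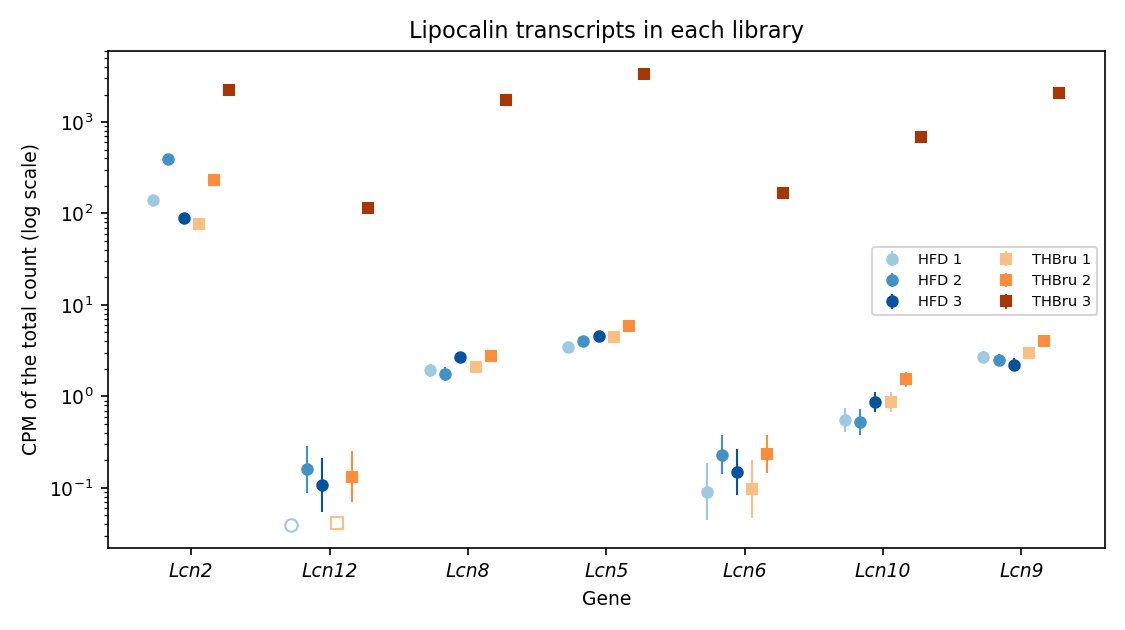
Level of each lipocalin in each library, in CPM on a log axis, with bars for 95% Wilson intervals of counting error, circles for HFD, squares for THBru and open markers for 0 counts drawn at the limit of 3 counts. The 6 epididymal lipocalins lie between 0 and 5.87 CPM in 5 libraries and between 114 and 3394 CPM in THBru 3, whereas Lcn2 lies between 77.6 and 392 CPM in the same 5 libraries.

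The 6 genes lie on chromosome 2 within 334.693 kb (coordinates as in the deposited table, read as GRCm38). From left to right they are Lcn12 (chr2:25490845-25493911, minus strand), Lcn8 (chr2:25653120-25656217), Lcn5 (chr2:25657952-25661645), Lcn6 (chr2:25676786-25681608), Lcn10 (chr2:25682726-25686081) and Lcn9 (chr2:25823153-25825537), the last 5 on the plus strand. Lcn8 and Lcn5 are 1.73 kb apart, and Lcn6 and Lcn10 are 1.12 kb apart. Lcn12 stands 159 kb before Lcn8, and Lcn9 stands 137 kb after Lcn10. Lcn2 (chr2:32384633-32387797, minus strand) is on the same chromosome but 6559 kb beyond Lcn9, so it does not belong to the physical cluster. Each of the 7 is a protein-coding gene with at most 6 or 7 exons per transcript in GENCODE M21, and no other gene of the table overlapped any of them.

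Since these genes shared a pattern, the 250 bases before their RefSeq starts (GRCm38.p6) were searched on both strands for 6 short motifs. The stretches of Lcn5 and Lcn8, the pair most abundant per length in THBru 3, of Lcn6 and of Lcn2 are given as the 220 bases next to the start, 5′ to 3′ in the direction of the gene, with motif matches in capitals.
Lcn5 (chr2:25657732-25657951, plus strand): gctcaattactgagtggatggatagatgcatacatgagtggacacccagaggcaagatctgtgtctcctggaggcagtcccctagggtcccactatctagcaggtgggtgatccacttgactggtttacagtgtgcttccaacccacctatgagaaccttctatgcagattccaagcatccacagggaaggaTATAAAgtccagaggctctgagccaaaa
Lcn8 (chr2:25652898-25653117, plus strand): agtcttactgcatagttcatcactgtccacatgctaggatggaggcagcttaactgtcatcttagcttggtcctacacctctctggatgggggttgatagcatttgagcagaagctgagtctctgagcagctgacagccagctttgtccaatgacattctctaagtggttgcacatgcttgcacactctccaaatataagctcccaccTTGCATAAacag
Lcn6 (chr2:25676566-25676785, plus strand): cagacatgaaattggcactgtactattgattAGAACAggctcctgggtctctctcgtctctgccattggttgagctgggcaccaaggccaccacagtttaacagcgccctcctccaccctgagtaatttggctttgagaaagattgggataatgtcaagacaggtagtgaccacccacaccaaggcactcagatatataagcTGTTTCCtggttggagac
Lcn2 (chr2:32387740-32387959, minus strand): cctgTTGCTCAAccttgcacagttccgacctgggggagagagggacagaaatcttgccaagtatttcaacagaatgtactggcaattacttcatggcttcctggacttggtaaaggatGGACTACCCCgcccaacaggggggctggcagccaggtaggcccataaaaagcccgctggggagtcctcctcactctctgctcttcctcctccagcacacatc

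Counted back from the start, Lcn5 held the TATA box letters TATAAA at -28 to -23, which 12.4% of all 32851 promoter windows of that length also held on either strand. Lcn8 held a C/EBP match (TT, any 2 bases, GCAA; 9.56% of windows) at -12 to -5, read on the opposite strand, and Lcn2 held another at -216 to -209. Lcn6 held the steroid receptor core letters AGAACA at -189 to -184 and a forkhead match (TGTTTNC, 17.8% of windows) at -18 to -12. AGAACA was also present before Lcn12, Lcn10 and Lcn9, so 4 of the 7 held it, against 16.1% of windows. The NF-κB letters (GGG, any 4 bases, TCC; 16.5% of windows) were found before Lcn2, Lcn12 and Lcn10, and the ETS letters GGAAGT (19.7% of windows) before Lcn9. No 2 of the 7 held the same set of motifs except Lcn12 and Lcn10. These short matches are a description of letters and not of bound sites. The RefSeq start of Lcn2 falls inside the row that the deposited table gives for the gene, and both Lcn2 and Lcn5 have table coordinates that differ from GENCODE M21.

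Lcn5 was the most abundant member in THBru 3 per length, at 3701 FPKM, the 6th highest of 32759 genes. Its CPM was 3.51, 4.07 and 4.57 across the 3 HFD libraries and 4.48, 5.87 and 3394 in THBru 1 to 3. THBru 3 stood 578-fold above the highest of the other 5 libraries, THBru 1 lay inside the HFD range in CPM and THBru 2 just above it. In CPM scaled by trimmed mean of M-values (TMM), as in the fit, THBru 1 was at 7.09 and THBru 2 at 4.92, both above the HFD maximum of 4.23. The fitted log2 difference, THBru over HFD, was 8.06 with a standard error (SE) of 2.88.

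Lcn8, whose gene is the immediate neighbour of Lcn5, came second among the members per length, at 2563 FPKM in THBru 3. Its CPM was 1.94, 1.78 and 2.68 across the 3 HFD libraries and 2.09, 2.79 and 1735 in THBru 1 to 3. The groups overlapped, since THBru 1 fell inside the HFD range in CPM. In TMM-scaled CPM it was THBru 2, at 2.35, that fell inside the range, of 1.74 to 2.48. THBru 3 stood 621-fold above the highest other library, and the fitted log2 difference was 8.02 (SE 2.90).

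Lcn9, at the far end of the cluster, reached 2371 FPKM in THBru 3, close to Lcn8 in that library. Its CPM was 2.73, 2.48 and 2.23 across the 3 HFD libraries and 3.00, 3.99 and 2068 in THBru 1 to 3. The groups did not overlap in CPM for Lcn9 and Lcn10, 2 of the 7 members, whereas 10.4% of genes tested were higher in THBru without overlap in CPM and 12.6% lower, 22.9% in all. In TMM-scaled CPM, Lcn5 joined them, making 3 of 7, beside 16.7% of genes tested. The fitted log2 difference of Lcn9 was 8.05 (SE 2.84).

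Lcn10 was an intermediate member, at 591 FPKM in THBru 3. Its CPM was 0.545, 0.520 and 0.865 across the 3 HFD libraries and 0.874, 1.54 and 680 in THBru 1 to 3. All 3 THBru libraries exceeded the highest HFD library. For THBru 1 the gap was small in CPM and wider in TMM-scaled CPM, at 1.38 against an HFD maximum of 0.802. Its fitted log2 difference was 8.39 (SE 2.88), and THBru 3 stood 443-fold above the highest other library, the smallest such fold of the 6.

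Lcn6, 1.12 kb upstream of Lcn10, was the least abundant member of THBru 3 per length, at 100 FPKM. Its CPM was 0.0909, 0.231 and 0.149 across the 3 HFD libraries and 0.0971, 0.234 and 169 in THBru 1 to 3. These low values rest on 7 to 16 counts per library outside THBru 3, so the 5 libraries could hardly be ordered. THBru 3 stood 721-fold above the highest of them, and the fitted log2 difference was 8.40 (SE 3.09).

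Lcn12 was detected in 4 of the 6 libraries. It had 0, 11 and 8 counts across the 3 HFD libraries and 0, 9 and 7668 in THBru 1 to 3. A count of 0 allows up to 3 counts, or 0.0390 CPM in HFD 1 and 0.0416 CPM in THBru 1, so the gene was not detectable there at this depth. THBru 3 held 114 CPM, 719-fold above the highest other library, and 139 FPKM. The fitted log2 difference was 8.64 (SE 3.54), the widest SE of the 7.

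The median log2 difference of the 6 was 8.22, and that of all genes tested was 0.08. Without THBru 3 the median of the 6 was 0.57, with values from -0.46 to 1.14, and that of all genes was 0.04. Thus 1 library decided the size of every difference among them. In THBru 3 the adipocyte list stood at 0.528% of counts. Of the 24 epididymal list genes, 20 were above every other library there by more than 8-fold. Of all 32759 genes, 3.22% were, with a level of 0 taken as 3 counts. The part of both lists in the lipocalin levels was not tested.

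The 6 genes kept nearly the same proportions to each other although their sum differed 561-fold between THBru 3 and the next library. Such proportions follow where genes lie at a similar percentage of their THBru 3 level, which was not particular to these 6, as given below. Of the summed counts of the 6, Lcn5 made up 41.6% in THBru 3 and 39.8 to 44.1% elsewhere. Lcn9 made up 25.3% in THBru 3 and 21.05 to 30.97% elsewhere, and Lcn8 made up 21.3% in THBru 3 and 19.2 to 25.3% elsewhere. The less abundant members did likewise, Lcn10 at 8.33% against 5.63 to 10.6% and Lcn6 at 2.07% against 0.921 to 2.5%. Lcn12 was at 1.40% against 0 to 1.72%. Of the 30 shares in the other 5 libraries, 21 had a 95% Wilson interval that held the share of THBru 3 and 9 did not, among them Lcn10 in HFD 1, HFD 2 and THBru 2.

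**Figure D2:**
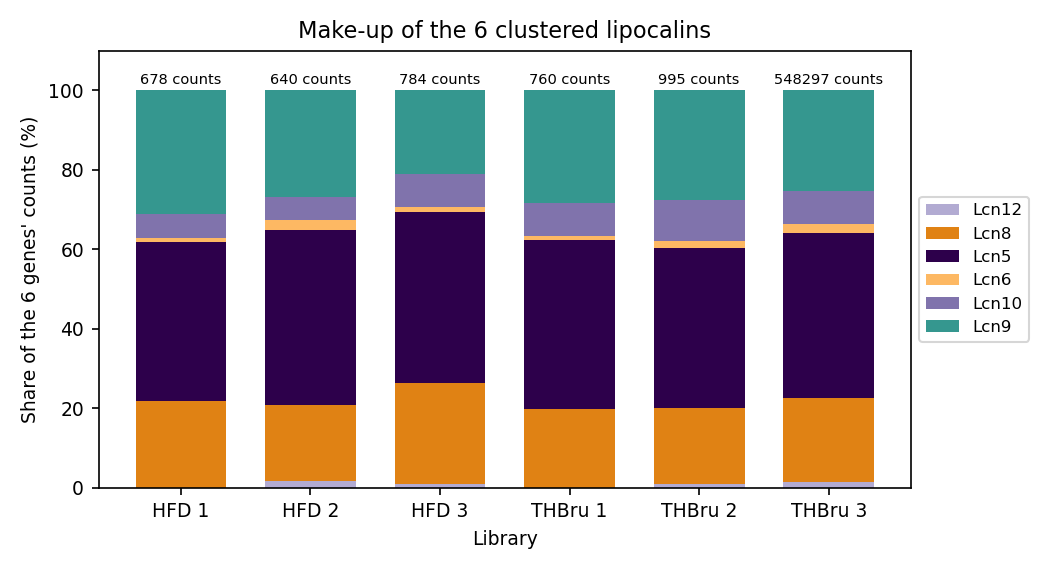
Share of each epididymal lipocalin in the summed counts of the 6, in percent, for each library. Lcn5 is the largest share in all 6 libraries (39.8 to 44.1%), followed by Lcn9 and Lcn8, whose order is turned in HFD 3. The number above each bar is the summed count, 548297 in THBru 3 and 640 to 995 elsewhere.

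Set against its own level in THBru 3, each of the 6 lay at about the same small percentage in the other libraries. The medians over the 5 libraries ran from 0.0881% for Lcn6 to 0.132% for Lcn5 and Lcn9, and the single values from 0 to 0.226%. By library, the median of the 6 was 0.0918, 0.120 and 0.117% in the HFD group, 0.125% in THBru 1 and 0.167% in THBru 2, the highest. Of the 20 epididymal list genes with at least 100 CPM in THBru 3, 18 had medians in the same region, from 0.0997 to 0.184%, and Clu and Aqp9 lay above 0.2%. Among the 18, Defb42 had a median of 0.184% but stood at 16.4% of its THBru 3 level in THBru 1. Clu, which encodes clusterin, and Aqp9, a water and glycerol channel, are also expressed outside the epididymis. Seminal vesicle genes behaved alike towards the library in which they were highest: in the 5 libraries other than THBru 1 they had medians of 0.138 to 0.174% of their THBru 1 level. Over all genes, 73 had at least 100 CPM in THBru 3 and stood at least 100-fold above every other library there. The 6 were among them. Medians of the 73 ran from 0.0715 to 0.269% of the THBru 3 level, a range that the 100-fold limit itself caps. How counts of these genes came to be in the other libraries was not tested. Lcn2 departed from this pattern, at 6.22, 17.6 and 4.04% of its THBru 3 level in the HFD group, 3.48% in THBru 1 and 10.4% in THBru 2.

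**Figure D3:**
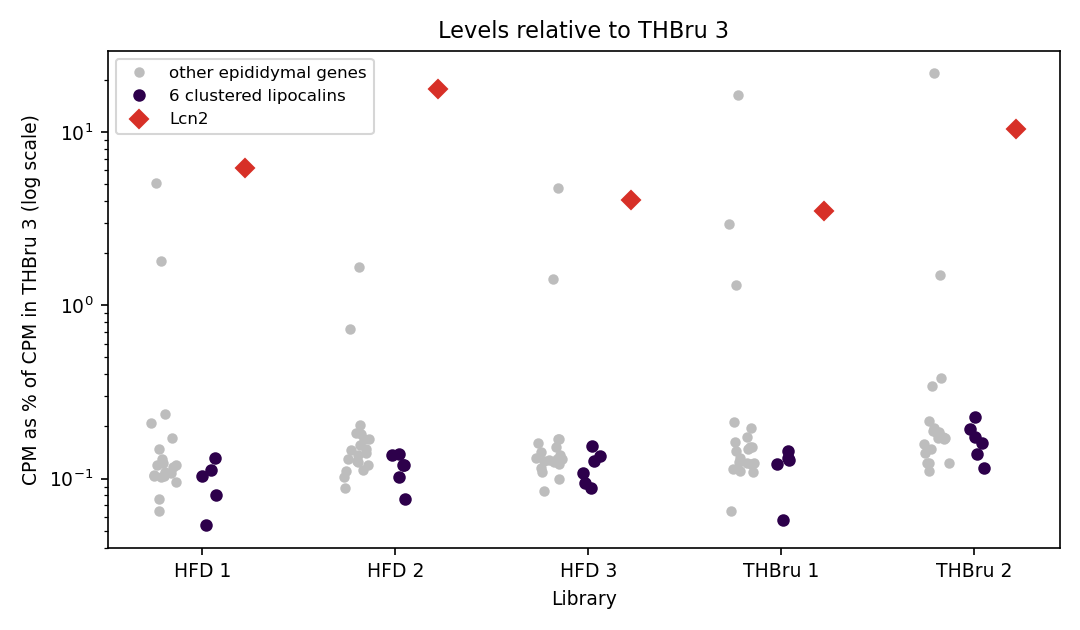
Level in each of the other 5 libraries as a percent of the level in THBru 3, on a log axis, for the 7 lipocalins and for epididymal list genes with at least 100 CPM in THBru 3; values of 0 are not drawn. The 6 epididymal lipocalins lie at or below 0.226%, and Lcn2 lies between 3.48 and 17.6%.

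Among tested genes with a regular symbol, the nearest profiles to each lipocalin were sought by Euclidean distance between log2(CPM + 0.05) values over the 6 libraries, each gene centred on its mean. Lcn5 was nearest to Gpx5 (distance 0.186), which encodes an epididymal glutathione peroxidase, then to Muc15 (0.219), a membrane mucin, and Adam7 (0.230), a protease-like protein of the epididymis. Lcn8 was nearest to Rnase9 (0.248), Defb30 (0.281) and Muc5b (0.288), of which Rnase9 and Defb30 are epididymal secretory genes and Muc5b encodes a gel-forming mucin. The nearest to Lcn9 were C4bp (0.279), encoding a complement inhibitor, the beta-defensin Defb20 (0.378) and the protease inhibitor Spink5 (0.391). Ces5a (0.466), encoding a carboxylesterase of epididymal fluid, Adam7 (0.567) and Muc5b (0.636) were nearest to Lcn10.

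The 2 least abundant members had looser neighbours. Lcn6 was nearest to Cst11 (0.548), an epididymal cystatin gene, Teddm1a (0.614), an epididymal membrane protein gene, and Wfdc13 (0.633). Lcn12 was nearest to the beta-defensin Defb41 (0.997), to Lcn6 (1.22) and to Spink10 (1.31). Distances among the 6 lipocalins ran from 0.348 to 2.22. Lcn2 stood 5.49 to 5.90 away from all of them, and its nearest were Slc45a3 (1.01), Rab44 (1.14) and Pdgfrl (1.23). These distances rest on 6 libraries, of which THBru 3 sets most of the variation, and are a description only.

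The genes between and around the lipocalins did not all share their pattern. Another 33 protein-coding genes lay within 200 kb of the cluster, 16 inside its span and 17 outside, of which 25 were tested and 0 were called by edgeR. Inside the span 5 of 16 were over 8-fold higher in THBru 3 than in any other library, and outside it 2 of 17 were. Of all 32759 genes, 3.22% were, with a level of 0 taken as 3 counts. The 5 included the odorant-binding lipocalin genes Obp2a and Obp2b. Obp2a had 498 counts in THBru 3 and no more than 10 elsewhere, and Obp2b had 44 there and 0 elsewhere. Bmyc, a Myc relative, was at 132 CPM in THBru 3 and 5.35 to 9.31 CPM elsewhere. Ccdc183, a coiled-coil protein gene, was at 19.7 CPM against 0.194 to 0.644, and Glt6d1, a glycosyltransferase gene, had 79 counts against 0. Lcn3, a lipocalin gene of the same interval, had 9 counts, all in THBru 3. Bmyc, Ccdc183, Fcna, Tmem141 and the end of Rabl6 overlap antisense genes, and C8g and Fbxw5 overlap each other, so their reads cannot be told apart without the strand setting.

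The other 10 neighbours inside the span, C8g, Fbxw5, Traf2, Edf1, Mamdc4, Phpt1, Ajm1, Rabl6, Tmem141 and Fcna, were at 0.176 to 2.12 times their highest other library in THBru 3. Fbxw5, an F-box protein gene close to Lcn12, was at 65.6 CPM in THBru 3 and 37.7 to 63.3 CPM elsewhere. Fcna, encoding the macrophage lectin ficolin A, was at 133, 94.2 and 70.9 CPM across the 3 HFD libraries and 24.5, 54.8 and 23.4 in THBru 1 to 3. Outside the span, Ptgds, encoding the lipocalin-type prostaglandin D synthase, and Abca2, encoding a lipid transporter, stood out in THBru 3, at 470 and 1342 CPM. Lrrc26, a channel subunit gene at the left edge of the window, was instead at 130 CPM in THBru 1 and at most 0.595 CPM in every other library.

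**Figure D4:**
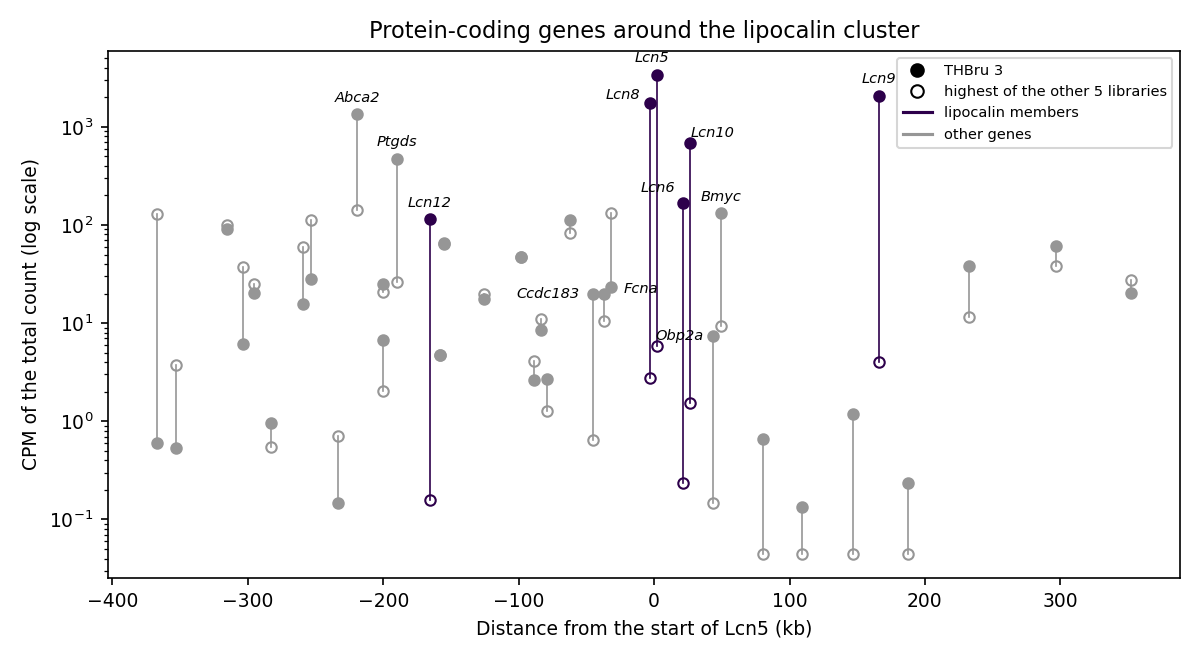
CPM on a log axis of each protein-coding gene within 200 kb of the lipocalin cluster, by distance from the start of Lcn5 in kb. Filled circles are THBru 3, open circles the highest of the other 5 libraries (0 drawn at the limit of 3 counts), and dark lines mark the 6 lipocalins, whose circles lie 443-fold or more apart, while those of Fbxw5, Traf2 and Edf1 nearly coincide.

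Lcn2 was present in every library. Its CPM was 139, 392 and 90.1 across the 3 HFD libraries and 77.6, 231 and 2229 in THBru 1 to 3. HFD 2 exceeded HFD 3 by 4.35-fold, so the spread within the diet group was wide, and 2 of the 3 THBru libraries fell below HFD 2. THBru 3 stood 10.8-fold above the HFD mean of 207 ± 162 CPM (SD, n = 3) and 5.69-fold above HFD 2. The fitted log2 difference was 1.96 (SE 1.24) with all libraries and -0.33 without THBru 3. Per length, Lcn2 was the highest of the 7 in each library other than THBru 3, at 28.6 to 144 FPKM, and the fourth in THBru 3, at 817 FPKM.

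In THBru 3 the summed adipocyte and neutrophil lists were low and Lcn2 was high. Per 1000 counts of the mature adipocyte list, Lcn2 gave 3.43, 7.06 and 1.49 counts across the 3 HFD libraries and 9.05, 5.07 and 422 in THBru 1 to 3. The 13 neutrophil genes of the table summed to 412 to 766 CPM in the HFD libraries, mostly Lrg1, and to 76.7, 257 and 63.6 CPM in THBru 1 to 3. Of these 13, S100a8 was at 0.405 to 3.84 CPM in the HFD libraries and had 0 counts in THBru 1 and THBru 3, and Camp was detected in HFD 2 only, with 33 counts. Ltf, encoding lactoferrin of granules and of secretory epithelia, was instead highest in THBru 3. It was at 0.419 to 4.78 CPM in the HFD libraries and 1.75, 0.600 and 5.82 in THBru 1 to 3. Of the 10 tested, 2 had a positive log2 difference, Ltf (0.63) and Elane (0.18). Elane and Mmp9 were highest in THBru 2, at 1.58 and 28.1 CPM. The ratio of Lcn2 to the neutrophil sum, mostly Lrg1 in every library, was 0.219 to 0.511 in the HFD libraries and 1.01, 0.896 and 35.0 in THBru 1 to 3. Genes of 12 general epithelium markers summed to 8.05 to 123 CPM in the HFD libraries and to 1164, 429 and 1902 CPM in THBru 1 to 3; the part of these cells in the Lcn2 level was not tested.

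**Figure D5:**
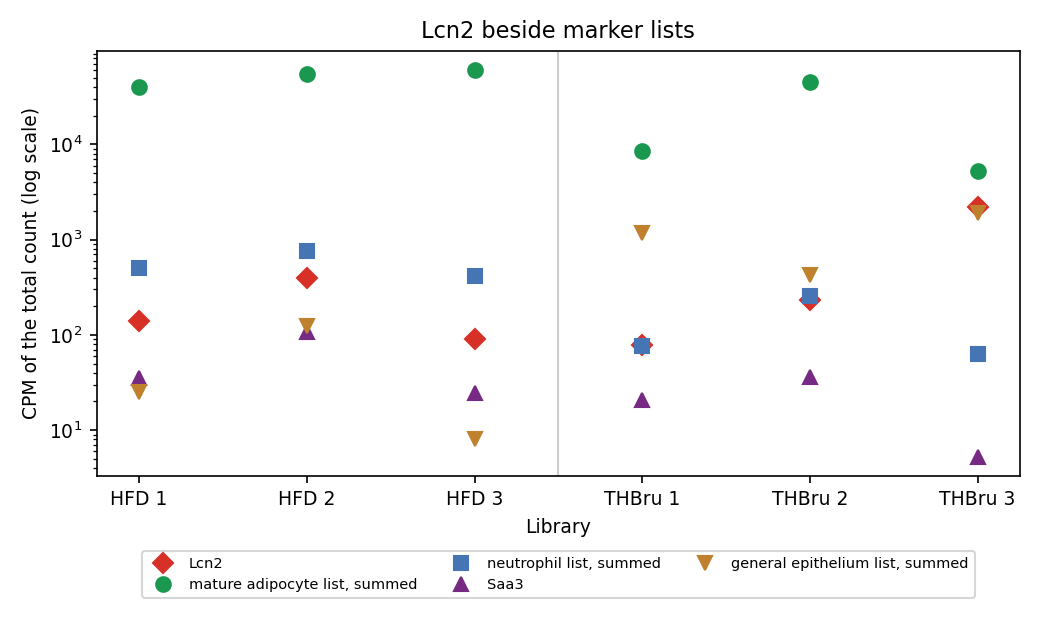
Lcn2 and Saa3 in each library beside the summed levels of the mature adipocyte, neutrophil and general epithelium lists, in CPM on a log axis. In THBru 3, Lcn2 (2229 CPM) and the epithelium list (1902 CPM) are at their highest and the adipocyte list (5277 CPM), the neutrophil list (63.6 CPM) and Saa3 (5.28 CPM) at their lowest.

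In CPM, Saa3, Lrg1 and Hp, which inflammation induces together with Lcn2, were lowest where Lcn2 was highest. The adipocyte list was lowest there too, at 5277 CPM, and these levels are not scaled to it. Saa3, encoding an acute phase apolipoprotein of fat, was at 35.3, 108 and 24.3 CPM across the 3 HFD libraries and 20.8, 36.4 and 5.28 in THBru 1 to 3. Within the HFD group, HFD 2 was the highest for both Lcn2 and Saa3. Lrg1, encoding a secreted acute phase glycoprotein and also on the neutrophil list, was at 375 to 679 CPM in the HFD libraries and 63.2, 206 and 47.4 in THBru 1 to 3. Hp, encoding the haemoglobin scavenger haptoglobin, was at 5017 to 7683 CPM in the HFD libraries and at 1006, 2492 and 377 CPM in THBru 1 to 3. Of 22 genes of NF-κB, interleukin and acute phase function, 18 were tested, and 0 were called in either direction by edgeR (6 had an unadjusted p under 0.05, all lower). Their median log2 difference was -0.79, beside 0.08 for all genes tested, and 1.32 beside 2.37 with the adipocyte list as library size. Among them Stat3, the transcription factor of interleukin-6 signalling, was at 212 to 272 CPM in the HFD libraries and 72.5, 201 and 171 in THBru 1 to 3. Nfkb1, encoding an NF-κB subunit, was at 85.1 to 106 CPM and at 44.4, 100.06 and 58.7. Both were lowest in THBru 1 in CPM, where Lcn2 was lowest too. In TMM-scaled CPM, Lcn2 was at 123 in THBru 1 and was lowest in HFD 3, at 83.5.

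Receptors and iron partners of Lcn2 were followed as a list of 20 genes. Of the 18 tested, 0 were called by edgeR (2 higher and 3 lower at an unadjusted p under 0.05), and the median log2 difference was -0.25, or 1.51 with the adipocyte list as library size. Slc22a17, described as a cell surface receptor of Lcn2, was at 12.3, 10.5 and 13.9 CPM across the 3 HFD libraries and 14.01, 37.6 and 39.3 in THBru 1 to 3 (log2 difference 1.37, SE 0.25, adjusted p = 0.120 by edgeR). Lrp2, encoding megalin, an endocytic receptor that also takes up lipocalins, was at 6.35, 44.8 and 1.47 CPM across the 3 HFD libraries and 0.804, 360 and 98.9 in THBru 1 to 3. Megalin is abundant in kidney tubule. Lrp2 is itself on the kidney list, which was highest in THBru 2, so the list is not independent of it. Trf, the transferrin gene, was at 3470 to 5027 CPM in the HFD libraries and 604, 3217 and 458 in THBru 1 to 3. Fth1, the ferritin heavy chain gene, was at 1615 to 1790 CPM in the HFD libraries and at 609 to 1384 CPM in the THBru libraries.

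Other lipocalin family genes varied in both directions. Of 16 found, 11 were tested, with 0 called by edgeR (1 higher and 1 lower at an unadjusted p under 0.05) and a median log2 difference of 3.86. That median rested on few genes, at 0.83, 0.74 and 0.85 without THBru 1, THBru 2 and THBru 3 in turn, and 0.68 with edgeR's own filter on low counts. Ptgds was at 0.390 to 0.636 CPM in the HFD libraries and 5.70, 26.6 and 470 in THBru 1 to 3. Apod, the apolipoprotein D gene, was at 63.7, 37.7 and 46.3 CPM across the 3 HFD libraries and 14.9, 56.0 and 133 in THBru 1 to 3. Rbp4, the retinol carrier gene made by fat and liver, was lowest in THBru 3, at 10.9 CPM, with 26.6 in THBru 1, 98.8 in THBru 2 and 76.8 to 161 in the HFD libraries. Mup4 and Mup6, major urinary protein genes, had 735 and 593 counts in THBru 3 but never more than 8 in another library. Mup genes are near-identical copies, so their counts are uncertain. The 7 lipocalins themselves shared none of their 31-base transcript words with another gene, and the longest run shared by any 2 of them was 18 bases.

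Retinoid genes, of interest because Lcn5 carries retinoic acid, lay on both sides of 0. Of 16 tested, 0 were called by edgeR (1 higher and 3 lower at an unadjusted p under 0.05), with a median log2 difference of -0.65, or 1.33 with the adipocyte list as library size. Aldh1a1, encoding a retinal dehydrogenase, was at 149, 486 and 234 CPM across the 3 HFD libraries and 59.5, 258 and 1014 in THBru 1 to 3. Dhrs3, encoding a retinal reductase, was at 142 to 287 CPM in the HFD libraries and 35.2, 160 and 33.8 in THBru 1 to 3. Rxra, the retinoid X receptor gene, was at 144 to 202 CPM in the HFD libraries and 46.2, 160 and 79.6 in THBru 1 to 3.

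Some regulators of epididymal transcription had their highest level in THBru 3. Of 19 tested, 13 had an unadjusted p under 0.05, all higher, and 0 were called lower by edgeR, with a median log2 difference of 4.32, or 2.91 without THBru 1 and 1.59 without THBru 3. Etv5, an ETS factor, was at 433 CPM in THBru 3 and 6.05 to 37.3 CPM elsewhere, and Etv4 at 54.6 against 0.765 to 1.40 CPM. Nr3c1, the glucocorticoid receptor gene, was at 113 to 159 CPM in the HFD libraries and 47.6, 172 and 54.0 in THBru 1 to 3.

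Markers of other cells were measured beside the lipocalins. Of the 24 epididymal genes, all tested, 0 were called by edgeR (22 had an unadjusted p under 0.05, all higher), with a median log2 difference of 7.93, or 0.67 without THBru 3. Gpx5 was at 26.5 to 38.5 CPM in 5 libraries and 24415 CPM in THBru 3, and Clu at 194 to 405 CPM and 13719 CPM. Pate4, which is also on the seminal vesicle list, was at 14927 CPM in THBru 1. Sperm genes summed to 103 CPM in THBru 3 and to at most 2.08 CPM elsewhere, led by Smcp at 23.3 CPM, with 9 tested and 0 called by edgeR (2 at an unadjusted p under 0.05, both higher; median 5.39, or 0 without THBru 3). The general epithelium list had 1 of 12 called higher by edgeR, Epcam, an epithelial adhesion gene (log2 difference 8.10, SE 0.77, adjusted p = 0.0486), and a median of 7.68. With any 1 HFD library left out, 0 list genes were called.

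Genes of the fat and its immune cells had negative medians in the same fit, and 0 of them were called by edgeR. The 22 adipocyte genes had a median log2 difference of -1.43 (4 lower at an unadjusted p under 0.05), with Fabp4 at 4746 to 9588 CPM in the HFD libraries and 1171, 7374 and 588 in THBru 1 to 3. The 10 neutrophil genes tested had a median of -2.07 (2 lower), and the 16 macrophage genes one of -2.24 (14 lower), with Lyz2 at 854 to 1673 CPM in the HFD libraries and 146, 461 and 70.6 in THBru 1 to 3. Lists of seminal vesicle (10 tested), kidney (9) and ciliated epithelium (10) genes also had 0 called, with medians of 8.68, 7.59 and 4.62. The seminal vesicle median was 0.43 without THBru 1, and the kidney median 1.40 without THBru 2.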

How the data were processed

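Poly(A) RNA of 6 white adipose tissue samples was sequenced from dUTP-marked libraries, per the labels' protocols. Per the file headers, the authors deposited raw counts per gene and FPKM values. The submitters' processing notes list edgeR, DESeq2, StringTie 2.1.6, HISAT2 2.2.1 and cutadapt 1.9, with no roles. Which program counted reads, with which strand setting and on which genome build, is not given in the sources used here. GENCODE M21 holds 99.7% of the gene identifiers and gives 87.5% of these the same GRCm38 coordinates. Without a known strand setting, reads of overlapping antisense genes cannot be told apart.

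Rows sharing a symbol were summed (32819 rows to 32759 genes). CPM are counts per 1000000 of the library total. THBru was compared with HFD by edgeR 4.0.16 quasi-likelihood tests (R 4.3.3, TMM scaling, two-sided) on 16140 genes whose mean FPKM reached 0.5, with Benjamini-Hochberg adjustment over all of them and a threshold of 0.05. The SE was taken as the log2 difference over the square root of F. Called means past that threshold. The steps were tested on simulated counts with the spread of the 3 HFD libraries. Of 50 genes changed at each size, 8% were called at a log2 difference of 1 and 96% at 8, with 6 false calls. That spread leaves out single deviating THBru libraries, so these shares do not carry over to the genes described here. Group means carry SD. Wilson intervals and the limit of 3 counts cover counting error only. No pair of libraries agreed within sampling noise (chi-square per gene at least 169).

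The members, the 14 gene lists and the rules were chosen with earlier results of these data known. Named were the 7 members, protein-coding neighbours within 200 kb, the 3 nearest profiles of each member among 13629 genes, the 3 most abundant genes of each list, and Slc22a17 and Lrp2. Other genes named (among them Saa3, Epcam, Etv4, Mup4, Mup6, Aqp9, S100a8 and Camp) were chosen after their values were seen. Promoters are from RefSeq, where all 7 members matched. Protein sequences, and listed genes absent from the table such as Ly6g, Lcn4 and Lcn11, were not analysed here. Some genes that the rule selects are left out of the text. Alternatives were other scalings (including the summed adipocyte list as library size), DESeq2 1.42.0, other filters, each library left out and a replicate block.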

Additional observations from a re-analysis of the deposited data

How the results depend on the processing

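The direction of the 6 epididymal lipocalins held under every alternative run except for Lcn12 without THBru 3 (-0.46), but their size rested on that library. Their median log2 difference, 8.22, was 11.58 with the adipocyte list as library size, 2.43 with the replicate block and 0.57 to 8.81 with each library left out (5 of the 6 passed the filterByExpr minimum). With the adipocyte list as library size 5 of the 7 members were called, and 0 under the other alternatives that gave a p. The difference of Lcn2, 1.96, was 5.19 with that scaling, and with each library left out it ran from -0.33 (without THBru 3) to 2.86. The adipocyte scaling moved the median of all genes from 0.08 to 2.37.

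The 19 genes called, 19 higher and 0 lower, became 53 with total counts, 7397 with the adipocyte scaling (7372 higher, 25 lower), 2773 with DESeq2 (1670 higher, 1103 lower) and 0 with the replicate block. With each library left out the count ran from 0 to 1552 (0 to 817 higher, 0 to 735 lower): it was 0 without any 1 HFD library, 79 without THBru 1, 1552 without THBru 2 and 23 without THBru 3, of which 17 were shared with the 19. The 2 list genes called higher became 4 with total counts, 99 with the adipocyte scaling, 33 with DESeq2 (27 lower) and 0 with the block, and 0 to 17 higher and 0 to 8 lower with each library left out. DESeq2 gave no p for the 7 lipocalins. The causes of these shifts were not tested.

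Of 182 list medians under 13 alternatives, 151 stayed within 1 SD of the libraries of a group, and 4 left their first sign: the retinoid, iron and NF-κB lists were at 1.33, 1.51 and 1.32 under the adipocyte scaling, and the sperm list at 0 without THBru 3. Samples with the same replicate number did not deviate together (correlations 0.05, -0.01 and -0.06). Those with different numbers gave -0.05 to 0.08. With 3 samples per group and transcripts of a different tissue high in each THBru library, these values cannot decide whether equal numbers mark pairs. Depth limits the values of Lcn6 and Lcn12 outside THBru 3, which rest on 16 counts or fewer.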
